A study of Mus musculus with 9 samples.

Results

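The genes described here encode the nuclear subunits of the mitochondrial oxidative phosphorylation machinery. They were taken by symbol alone, as the protein-coding genes of the deposited table named for the subunits of complexes I to V. This gave 93 of the 35275 genes listed, which fall into 36 subunits and 7 Ndufaf assembly factors of complex I, 4 subunits of complex II, 9 of complex III, 20 genes of complex IV and 17 genes of complex V. A further 3 pseudogenes with a matching symbol were left out because they are not protein-coding.

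The RNA came from mouse embryonic fibroblasts (MEFs), cultured connective tissue cells of the C57Bl/6 strain, and the libraries were made from poly(A)-selected RNA. Control cells stayed in iso-osmolar medium, and the others were placed for 3 h in medium with added sucrose, either 200 mM, which brought it to 500 mOsm (low-intensity hyperosmotic stress), or 300 mM, which brought it to 600 mOsm (high-intensity stress). Each condition was sequenced as 3 libraries, 9 in all, and the labels name no genetic change, drug or second agent in any of them. The study asked how the response depends on the intensity of the stress, and the comparisons are 500 mOsm against iso-osmolar, 600 mOsm against iso-osmolar and 600 mOsm against 500 mOsm.

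Total counts on genes lay between 21716042 and 26740832 per library, and the TMM factors that scale them lay between 0.974 and 1.013. Of 10 fibroblast markers, 8 exceeded 1 FPKM in every library, with collagen genes Col1a1 and Col1a2 and the filament gene Vim among them, while Dcn and Lum stayed near 0. The sources used here do not say whether replicate libraries came from separate cultures, so the p-values measure the spread between these libraries, which may be technical. In RNA from whole cultures, a smaller share of cells of one kind and less RNA per cell cannot be told apart.

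Complexes I to IV form the respiratory chain of the inner mitochondrial membrane. Complex I takes electrons from NADH and complex II from succinate, complex III passes them from ubiquinol to cytochrome c, complex IV hands them to oxygen, and complex V, the ATP synthase, uses the proton gradient that complexes I, III and IV build. All complexes but complex II also hold subunits encoded in mitochondrial DNA, so their nuclear and mitochondrial subunits must meet in one assembly. Several subunits of complex IV exist as alternative isoforms that are known from muscle, lung, testis or low oxygen.

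Few of these genes were called under low-intensity stress, and most were higher, by a small amount, under high-intensity stress. Of the 93 genes, 87 passed the filter on low counts and were tested. At 500 mOsm, 2 of the 87 were higher than in iso-osmolar cells and 1 was lower, against 13.2% of all 13082 genes tested that were called higher and 14.8% called lower. The 2 called higher are isoforms, Cox4i2 and Cox6b2, which passed the filter only through their counts at 500 mOsm. At 600 mOsm, 56 of the 87 were higher and 0 were lower than in iso-osmolar cells (edgeR), while 15.1% of all genes tested were called higher and 20.0% lower. At an unadjusted p under 0.05 the number lower was also 0, and DESeq2 and limma likewise called 0 lower. Against 500 mOsm, 39 were higher and 2 were lower at 600 mOsm, beside 11.9% and 17.2% of all genes. The 2 lower were these same isoforms, for which the filter favoured a high value at 500 mOsm, so their calls are a description. Of the 85 other genes, 0 were higher and 1 lower at 500 mOsm against iso-osmolar cells. At 600 mOsm 54 of them were higher and 0 lower than in iso-osmolar cells, and 39 higher and 0 lower than at 500 mOsm. Calls rest on edgeR's quasi-likelihood test with Benjamini-Hochberg adjustment across the 13082 genes, at an adjusted p under 0.05.

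The size of the change was small throughout. The median log2 fold change of the 87 genes was 0.05 at 500 mOsm and 0.22 at 600 mOsm against iso-osmolar cells and 0.17 between the 2 intensities, where the medians over all genes tested were 0.01, 0.01 and 0.01. The median standard error of a member's log2 fold change was 0.06 in all 3 comparisons. Across all genes tested the median standard error at 600 mOsm was 0.1. The interquartile range of the members lay between 0.17 and 0.29 at 600 mOsm against iso-osmolar cells, whereas that of all genes lay between -0.25 and 0.20. The medians stayed at 0.05, 0.22 and 0.17 when the near-silent isoforms described below were set to the bounds that their counts allow.

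**Figure D1:**
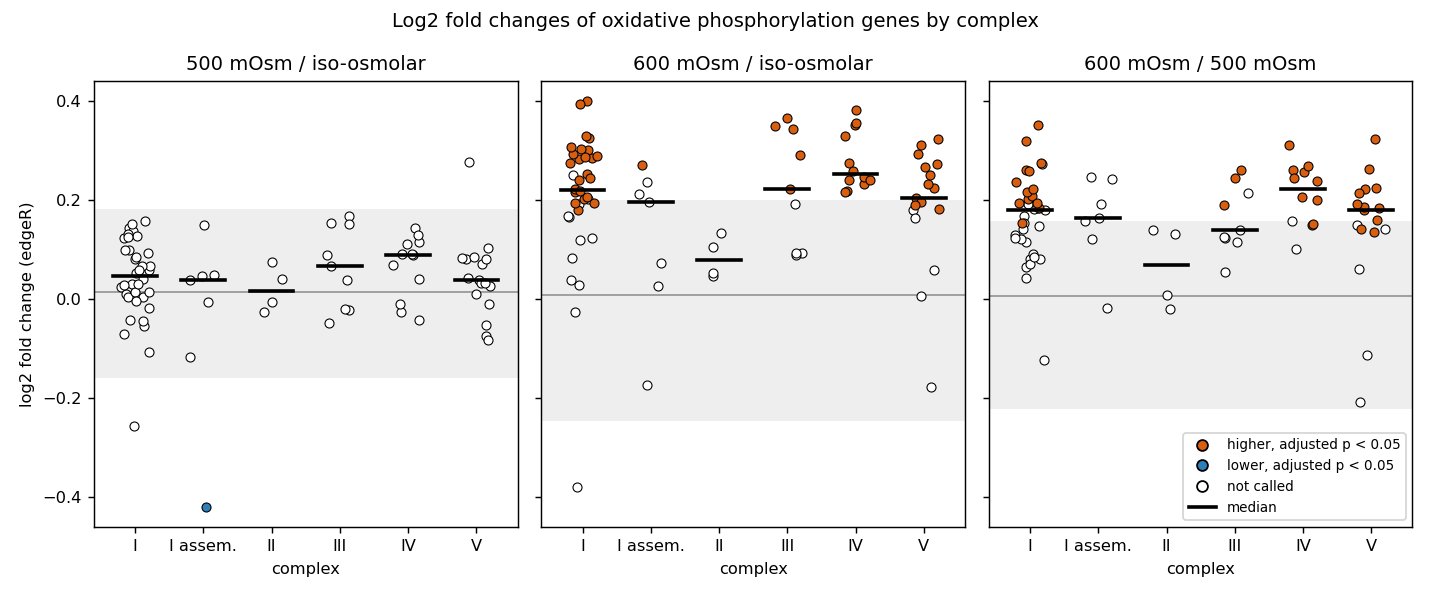
Log2 fold change (edgeR, vertical axis) of each tested gene by complex (horizontal axis, I assem. for the Ndufaf assembly factors) in the 3 comparisons; black bars are medians, the grey line and band are the median and interquartile range of all 13082 genes tested, and Cox4i2 and Cox6b2 are left out for scale. At 600 mOsm the called genes lie between 0.18 and 0.40 and none of the 4 complex II genes is called.

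The shift could be seen in each library. Over 76 structural subunits (all tested genes but the assembly factors, the complex IV tissue isoforms and Atp5s and Atp5sl), the median log2 ratio to the iso-osmolar mean was 0.24, 0.18 and 0.24 in the 600 mOsm libraries. It was 0.01, 0.05 and 0.08 in the 500 mOsm libraries and 0.01, 0.01 and -0.01 in the iso-osmolar ones. The same median over all genes stayed between -0.02 and 0.01 in all 9 libraries, where the TMM scaling tends to hold it near 0. At 600 mOsm, 68 of the 87 genes had all 3 libraries above all 3 iso-osmolar libraries, where 22.9% of all genes tested did. Between 600 and 500 mOsm the number was 53 of 87, beside 19.3% of all genes, and between 500 mOsm and iso-osmolar cells it was 20 of 87, beside 20.1%. The 93 genes together took 1.05%, 1.04% and 1.04% of the counts of the iso-osmolar libraries. They took 1.04%, 1.06% and 1.09% at 500 mOsm and 1.2%, 1.17% and 1.19% at 600 mOsm.

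**Figure D2:**
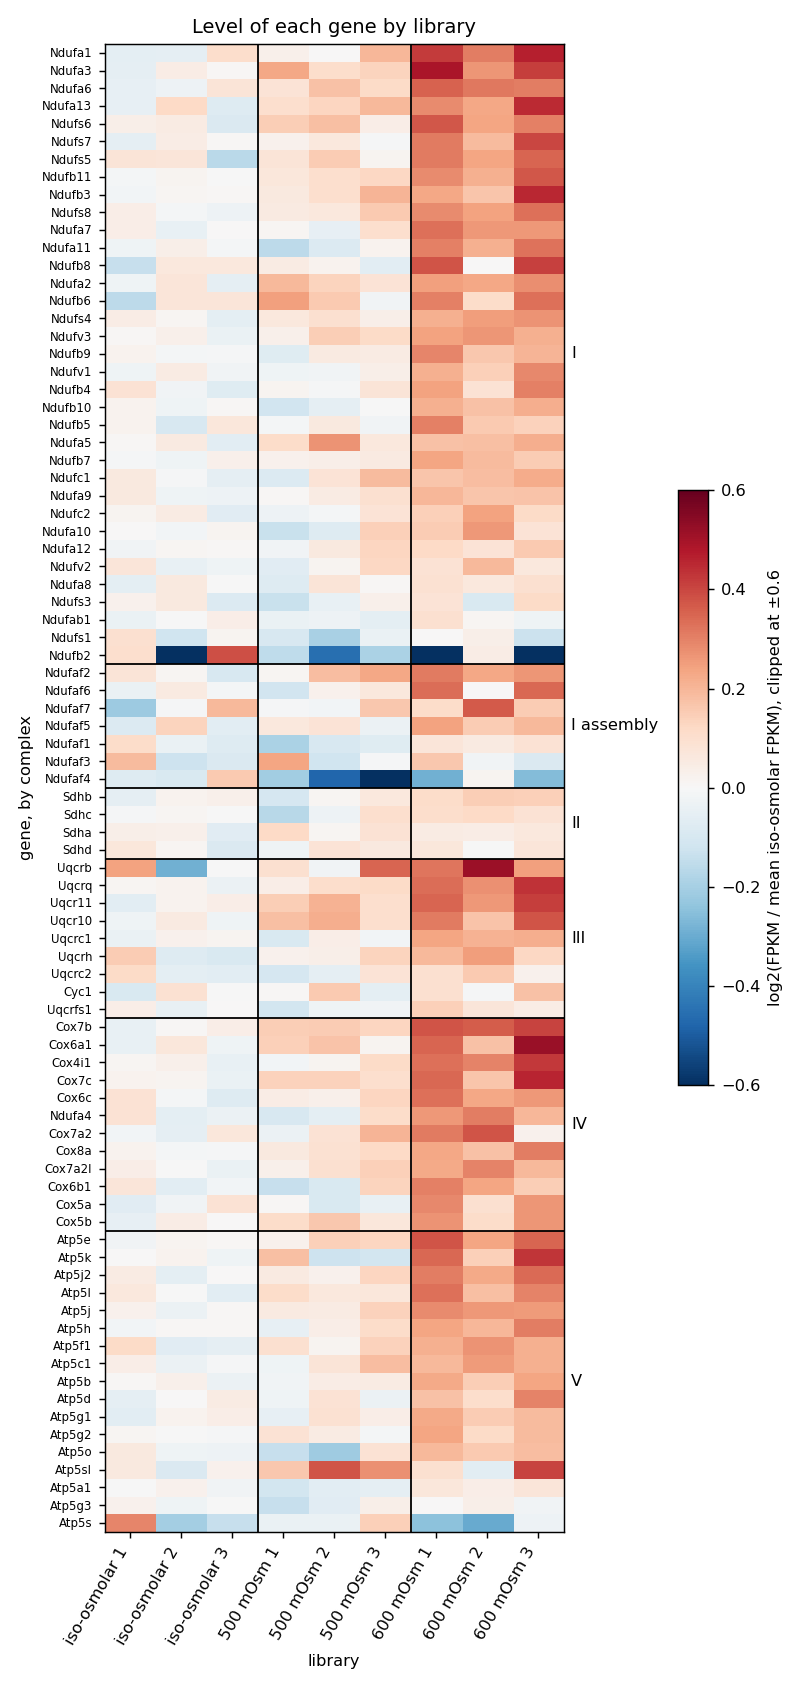
Log2 ratio of each gene's FPKM to its iso-osmolar mean (color, clipped at ±0.6) in each of the 9 libraries (columns) for the tested genes shown (rows, by complex and by the change at 600 mOsm). The 600 mOsm columns are red over most rows of complexes I, III, IV and V, with the second 600 mOsm library paler than the other two, and the complex II rows stay pale.

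These genes are short, and the change at 600 mOsm went with gene length. The tested members had a median length of 1046 bases against 3020 bases for all genes tested, with a median GC content of 51.3% against 51.2%. Over 85 members (Cox4i2 and Cox6b2 left out), Spearman's rho between gene length and the log2 fold change was -0.52 at 600 mOsm and -0.38 at 500 mOsm against iso-osmolar cells, a description over genes that share the same libraries. When GC content and length were corrected for in each library, 34 members were called higher and 1 lower at 600 mOsm against iso-osmolar cells, beside 16.4% and 21.2% of all genes, and the median log2 fold change was 0.14. With the replicate number added to that correction as a block, 25 were higher and 1 lower. What part of the shift belongs to length and what part to the function of the genes cannot be told apart here. The count between 600 and 500 mOsm varied with the library left out. Without the first 600 mOsm library 20 members were called higher, beside 7.88% of all genes. Of the 41 calls in either direction, 26 were kept without the third 600 mOsm library. Without the first or the third 500 mOsm library 28 were kept.

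To show the sequence from which members that moved together are transcribed, the windows from 250 bases before to 50 bases after the start site were read from RefSeq (GRCm38.p6) and searched on both strands for short cores of 3 factors known to act on respiratory chain genes. The cores were CGCATGCG for Nrf1, which is its own reverse complement, CCGGAAG for Gabpa and its ETS relatives, and AAGATGG for Yy1, and the ETS core ends with the letters that begin the Yy1 core, so that these can overlap. The table held windows for 76 members, 73 matched by symbol and 3 by a synonym. The Nrf1 core was found in 11 of the 76 (14.5%), against 2.07% of 27025 genes in the table and 4.51% of the 9290 of them that were tested in these libraries. The ETS core was found in 17 members (22.4%), against 9.93% of all and 20.3% of tested genes, and the Yy1 core in 12 (15.8%), against 7.28% and 8.55%. Any of the 3 was present in 47.9% of the 48 matched members called higher at 600 mOsm and in 44.0% of the 25 tested and not called. The TonE and κB consensus sites, searched after the values were known, were found in 2.63% and 1.32% of members, against 4.63% and 6.42% of tested genes. A match is a description of letters and not a bound site.

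The windows shown are those of Ndufa11 (chr17:56717512-56717811, plus strand), which had the largest log2 fold change between the intensities, of Cox6a1 (chr5:115348909-115349208, minus strand) and Atp5k (chr5:108434350-108434649, minus strand), which hold both the Nrf1 and the ETS core, of Sdhb (chr4:140961021-140961320, plus strand) from complex II, which was not called, and of the isoform pair Cox6b1 (chr7:30626065-30626364, minus strand) and Cox6b2 (chr7:4753045-4753344, minus strand), whose levels lie far apart. Each is written 5′ to 3′ along the gene, and capitals mark the cores of the 3 factors.
Ndufa11: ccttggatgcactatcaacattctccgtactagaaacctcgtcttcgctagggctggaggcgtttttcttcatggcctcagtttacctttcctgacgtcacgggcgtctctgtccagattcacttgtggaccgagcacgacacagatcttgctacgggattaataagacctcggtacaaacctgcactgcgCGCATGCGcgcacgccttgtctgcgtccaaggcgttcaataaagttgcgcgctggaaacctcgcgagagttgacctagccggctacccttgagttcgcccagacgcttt
Cox6a1: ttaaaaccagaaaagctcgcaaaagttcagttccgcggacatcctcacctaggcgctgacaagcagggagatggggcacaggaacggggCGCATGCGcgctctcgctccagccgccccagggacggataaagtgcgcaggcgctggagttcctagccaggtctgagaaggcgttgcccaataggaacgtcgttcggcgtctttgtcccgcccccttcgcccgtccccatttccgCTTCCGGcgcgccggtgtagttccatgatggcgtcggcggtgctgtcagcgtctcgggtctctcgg
Atp5k: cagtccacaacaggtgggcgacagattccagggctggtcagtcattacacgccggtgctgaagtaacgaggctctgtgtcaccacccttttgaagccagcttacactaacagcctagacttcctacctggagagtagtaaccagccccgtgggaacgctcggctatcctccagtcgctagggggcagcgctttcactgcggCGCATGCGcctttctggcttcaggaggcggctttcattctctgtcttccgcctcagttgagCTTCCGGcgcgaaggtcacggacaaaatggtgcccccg
Sdhb: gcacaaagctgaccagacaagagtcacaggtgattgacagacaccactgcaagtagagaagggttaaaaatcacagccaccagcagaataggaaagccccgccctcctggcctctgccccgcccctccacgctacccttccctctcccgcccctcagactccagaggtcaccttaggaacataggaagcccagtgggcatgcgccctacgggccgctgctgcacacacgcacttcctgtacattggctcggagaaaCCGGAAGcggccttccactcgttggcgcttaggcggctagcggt
Cox6b1: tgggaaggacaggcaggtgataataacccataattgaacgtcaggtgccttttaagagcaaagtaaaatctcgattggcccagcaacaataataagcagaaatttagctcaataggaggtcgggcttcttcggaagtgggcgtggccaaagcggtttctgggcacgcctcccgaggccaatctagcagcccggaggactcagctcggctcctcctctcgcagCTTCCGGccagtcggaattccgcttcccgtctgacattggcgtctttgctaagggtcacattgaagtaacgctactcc
Cox6b2: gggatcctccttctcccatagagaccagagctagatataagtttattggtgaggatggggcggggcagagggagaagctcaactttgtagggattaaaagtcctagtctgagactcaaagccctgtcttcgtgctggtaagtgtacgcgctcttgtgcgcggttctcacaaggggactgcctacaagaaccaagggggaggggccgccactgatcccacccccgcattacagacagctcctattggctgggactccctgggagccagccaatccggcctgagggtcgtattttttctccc
The Ndufa11 window held 1 core, those of Cox6a1 and Atp5k held 2, those of Sdhb and Cox6b1 held 1 ETS core, and none of the 3 cores was found in the Cox6b2 window.

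Complex I, the NADH dehydrogenase, followed the general pattern. At 600 mOsm 24 of its 36 genes were higher than in iso-osmolar cells and 14 were higher than at 500 mOsm, while at 500 mOsm 0 were called in either direction (edgeR, with 2 higher and 0 lower at an unadjusted p under 0.05, 0 by DESeq2 and 1 higher by limma). Under the GC and length correction the count against iso-osmolar cells was 13, and 8 with the replicate block added, and the count against 500 mOsm was 9 without the first 600 mOsm library. Of all genes tested, 16.4%, 14.1% and 7.88% were called higher in these settings. The 7 core subunits that carry the redox centers rose in 4 cases at 600 mOsm, among them Ndufv1 of the NADH-oxidizing arm. Of the 29 accessory subunits, which surround the core, 20 rose. The largest rise against iso-osmolar cells was that of Ndufa1, a small membrane subunit encoded on the X chromosome. Its level was 46.5, 46.6 and 52.0 FPKM (counts scaled by gene length in kilobases and by the TMM-scaled library total, comparable between genes) in iso-osmolar cells, 49.5, 48.5 and 55.5 at 500 mOsm and 64.6, 59.8 and 66.9 at 600 mOsm. The 600 mOsm libraries lay above all others while the other groups overlapped, and the log2 fold change was 0.40 ± 0.08 (SE, edgeR adjusted p = 0.00254) against iso-osmolar and 0.32 ± 0.08 (adjusted p = 0.0109) against 500 mOsm.

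Ndufa11, an accessory subunit of the membrane arm, showed the largest rise between the intensities. It read 27.0, 28.1 and 27.2 FPKM in iso-osmolar cells, 24.6, 25.9 and 27.9 at 500 mOsm and 33.8, 31.8 and 34.4 at 600 mOsm. The log2 fold change from 500 to 600 mOsm was 0.35 ± 0.06 (edgeR adjusted p = 0.000539). Ndufb9 was the most abundant complex I transcript, with 381, 372 and 374 FPKM in iso-osmolar cells, 357, 390 and 389 at 500 mOsm and 460, 420 and 432 at 600 mOsm. It rose by 0.22 ± 0.05 on the log2 scale at 600 mOsm against iso-osmolar cells (edgeR adjusted p = 0.00469). The 12 complex I genes that were called in none of the comparisons included the core subunits Ndufs1, Ndufs3 and Ndufv2, whose log2 fold changes at 600 mOsm were -0.03, 0.04 and 0.12. Ndufb2 was listed at only 0.44 FPKM in iso-osmolar cells, on a gene model of 4371 bases that shares 145 exon bases with the unlisted gene Gm42420 on the same strand, so its level is uncertain.

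The 7 assembly factors, which help to build complex I and are not part of the finished enzyme, had a median change close to that of the subunits, at a larger error. At 600 mOsm 1 of the 7 was higher than in iso-osmolar cells, near the 15.1% of all genes, and at 500 mOsm 1 was lower, near the 14.8%. Their median log2 fold change at 600 mOsm was 0.195 against 0.219 for the complex I subunits, with median standard errors of 0.106 and 0.062. Ndufaf2 read 36.4, 34.7 and 32.3 FPKM in iso-osmolar cells, 34.8, 39.2 and 40.5 at 500 mOsm and 42.8, 40.5 and 41.4 at 600 mOsm. Its log2 fold change at 600 mOsm was 0.27 ± 0.08 (edgeR adjusted p = 0.0174), and the call was lost without the third iso-osmolar or the first 600 mOsm library. Ndufaf4 was the single member called lower under low-intensity stress. It read 5.63, 5.58 and 6.63 FPKM in iso-osmolar cells, 5.15, 4.27 and 3.91 at 500 mOsm and 4.86, 6.01 and 4.96 at 600 mOsm. The 500 mOsm libraries lay below all iso-osmolar ones, with a log2 fold change of -0.42 ± 0.12 (edgeR adjusted p = 0.0183), and the 600 mOsm libraries overlapped both groups. The call was lost without the third iso-osmolar library (log2 fold change -0.338) or without the third 500 mOsm library (-0.336).

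Complex II, succinate dehydrogenase, is encoded by nuclear genes alone and also works in the citric acid cycle. None of its 4 genes was called in any comparison by edgeR, DESeq2 or limma on log2 FPKM, and at an unadjusted p under 0.05 edgeR counted 0 at 500 mOsm and 1, Sdhb, in each comparison with 600 mOsm. Other edgeR settings did make calls: Sdhb rose at 600 mOsm against iso-osmolar cells when these 2 groups alone were fitted or without the first or the third 500 mOsm library, Sdhb and Sdhc rose against 500 mOsm without the third 500 mOsm library, and Sdha rose at 500 mOsm under the GC and length correction. Sdha, the flavoprotein, read 55.5, 55.4 and 51.8 FPKM in iso-osmolar cells, 58.9, 54.7 and 57.6 at 500 mOsm and 56.1, 56.0 and 56.6 at 600 mOsm. Sdhb, the iron-sulfur subunit, read 112, 119 and 119 FPKM in iso-osmolar cells, 109, 118 and 122 at 500 mOsm and 126, 129 and 129 at 600 mOsm. Its 600 mOsm libraries lay above the other 6, by a log2 fold change of 0.13 ± 0.05 against iso-osmolar cells that missed the threshold (edgeR adjusted p = 0.0642). The membrane anchors Sdhc and Sdhd read 20.1, 20.3 and 20.1 and 91.1, 87.5 and 81.7 FPKM in iso-osmolar cells. At 600 mOsm they read 21.7, 21.9 and 21.4 and 90.8, 86.6 and 91.2, with log2 fold changes of 0.10 ± 0.06 and 0.05 ± 0.05. The 4 log2 fold changes at 600 mOsm lay between 0.05 and 0.13 with a median of 0.08. That the complex as a whole moved less than the others was not tested.

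In complex III, the cytochrome bc1 complex, most calls fell on the small subunits, a difference between roles that was not tested. Of 5 supernumerary subunits 4 rose at 600 mOsm against iso-osmolar cells, of the 2 core proteins 1 (Uqcrc1) and of the 2 nuclear redox subunits 0 (edgeR). Of the 9 genes, 4 were higher and 1 lower under the GC and length correction, beside 16.4% and 21.2% of all genes. With the replicate block added 1 was higher and 1 lower, near the 14.1% of all genes called higher, where 19.1% were lower. Uqcrq, a small subunit, had 155, 156 and 150 FPKM in iso-osmolar cells, 158, 165 and 167 at 500 mOsm and 194, 186 and 207 at 600 mOsm. The 500 mOsm libraries already lay above the iso-osmolar ones without passing the test, and at 600 mOsm the log2 fold change was 0.35 ± 0.05 against iso-osmolar (edgeR adjusted p = 0.000163) and 0.26 ± 0.05 against 500 mOsm (adjusted p = 0.00158). Uqcrb had the largest estimate of the complex, 0.37 ± 0.13 on the log2 scale, but its iso-osmolar libraries ranged from 25.4 to 36.6 FPKM and the 600 mOsm libraries from 36.7 to 44.2, and the call was narrow (edgeR adjusted p = 0.0489). Cyc1, cytochrome c1, read 196, 223 and 209 FPKM in iso-osmolar cells, 210, 234 and 201 at 500 mOsm and 224, 209 and 237 at 600 mOsm. Its groups overlapped, and the log2 fold change at 600 mOsm was 0.09 ± 0.07 (edgeR adjusted p = 0.323), which turned to -0.12, called lower, under the GC and length correction.

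In complex IV, cytochrome c oxidase, the 12 genes expressed in most tissues all rose at 600 mOsm. This count, 12 of 12 by edgeR with log2 fold changes from 0.21 to 0.38, includes Ndufa4, which is named for complex I but is now counted with complex IV, and the supercomplex factor Cox7a2l. Under the GC and length correction, 7 of the 14 tested complex IV genes were called higher, beside 16.4% of all genes. This wider set adds the isoforms Cox4i2 and Cox6b2 to these 12. Cox4i1, a subunit that contacts the catalytic core, read 262, 266 and 252 FPKM in iso-osmolar cells, 258, 263 and 281 at 500 mOsm and 327, 320 and 349 at 600 mOsm. Iso-osmolar and 500 mOsm libraries overlapped and all 600 mOsm libraries stood above them, by a log2 fold change of 0.31 ± 0.05 against 500 mOsm (edgeR adjusted p = 0.000587). Cox7b had the smallest adjusted p of all members at 600 mOsm against iso-osmolar cells. Its libraries read 47.8, 49.6 and 50.7 FPKM in iso-osmolar cells, 54.7, 54.9 and 53.9 at 500 mOsm and 64.0, 63.5 and 65.3 at 600 mOsm. The 3 groups did not overlap, the step to 500 mOsm missed the threshold (0.14 ± 0.05 on the log2 scale, edgeR adjusted p = 0.0502) and the step from 500 to 600 mOsm passed it (0.24 ± 0.05, adjusted p = 0.00322). Both Cox6a1 and Cox8a were among the most abundant members. Cox6a1 read 526, 571 and 534 FPKM in iso-osmolar cells and 692, 614 and 779 at 600 mOsm, so the rise of 0.36 ± 0.08 on the log2 scale (edgeR adjusted p = 0.00311) came with a wide spread. Cox8a read 300, 293 and 294 FPKM in iso-osmolar cells, 308, 315 and 322 at 500 mOsm and 348, 334 and 366 at 600 mOsm, and its log2 fold change of 0.24 at 600 mOsm was -0.003 under the GC and length correction. The reads of Cox7a2l cannot be fully separated from those of a processed pseudogene, Gm6969, which shares 201 identical bases and held 21.5% as many counts.

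The alternative isoforms of complex IV were near-silent in these fibroblasts, and 2 of them read at low levels at 500 mOsm. Cox4i2, the isoform known from lung and low oxygen (chr2:152754173-152765037, plus strand), had 0, 1 and 1 counts in the iso-osmolar libraries, 20, 22 and 27 at 500 mOsm and 11, 4 and 8 at 600 mOsm. Cox6b2, the isoform known from testis (chr7:4751792-4753094, minus strand), had 0 counts in each iso-osmolar library, 15, 13 and 20 at 500 mOsm and 9, 6 and 5 at 600 mOsm. For both genes the 3 groups did not overlap, and 500 mOsm was the highest. The ratio of Cox4i2 at 500 mOsm to iso-osmolar cells was 31.7 (exact 95% counting interval 8.44 to 267), and at 600 mOsm it was 11.3 (2.79 to 98.9). Cox6b2 was at least 14.7-fold higher at 500 mOsm and at least 6.55-fold higher at 600 mOsm than a floor of 3 counts over the iso-osmolar group. Both passed the filter on low counts only through the 500 mOsm libraries, so that a difference from both other groups was favoured by their selection, and their values are given as a description without a test. Of 163 genes tested with at most 2 counts over the iso-osmolar libraries, 152 were called higher at 500 mOsm and 76 at 600 mOsm. These genes too could pass the filter only through stressed libraries, so their calls were favoured by the same selection. They show that other near-silent genes rose as well, and not how common this was among all near-silent genes.

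At 600 mOsm both isoforms had fewer counts than at 500 mOsm. The ratio of 600 to 500 mOsm was 0.357 for Cox4i2 (exact 95% counting interval 0.212 to 0.579) and 0.446 for Cox6b2 (0.251 to 0.766). The intervals cover counting error only, and DESeq2 called neither gene lower. In amount both remained minor. Cox4i2 read 1.12 to 1.40 FPKM at 500 mOsm, which was 0.428% to 0.496% of the sum of Cox4i2 and Cox4i1. Cox6b2 read 0.837 to 1.30 FPKM, 0.61% to 0.812% of the sum with Cox6b1. Cox6b1 itself read 153, 139 and 144 FPKM in iso-osmolar cells, 132, 136 and 159 at 500 mOsm and 179, 171 and 161 at 600 mOsm.

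Of 7 marker lists for other cell types, all but that of macrophages also had their highest sum in a 500 mOsm library. The summed level of 5 endothelial markers was 0.203 to 0.243 FPKM in iso-osmolar cells, 3.38 to 3.79 at 500 mOsm and 0.582 to 0.891 at 600 mOsm, and at 500 mOsm most of it was Pecam1. Those of 5 epithelial markers were 0.0319 to 0.234, 1.06 to 1.49 and 0.121 to 0.278 FPKM, led at 500 mOsm by Cdh1. Of 5 testis germ cell markers, Dazl and Tnp1 were at 0 in every library. The sum was 0.174 to 0.262 FPKM in iso-osmolar cells, 0.276 to 0.569 at 500 mOsm and 0.165 to 0.446 at 600 mOsm, mostly from Prm1. The 8 striated muscle markers summed to 15.5 to 16.2, 16.2 to 16.5 and 14.9 to 16.3 FPKM in the 3 groups, nearly all from Tnnt2, and Myog was at 0. The 5 neuronal markers gave 2.41 to 2.62, 3.65 to 4.52 and 2.83 to 3.43 FPKM, with Snap25 at 0, the 4 adipocyte markers 0.0391 to 0.14, 0.369 to 0.731 and 0.277 to 0.417 FPKM, and the 5 macrophage markers 20.4 to 23.8, 15.1 to 26.0 and 20.5 to 28.5 FPKM. The part of such cells in the isoform levels was not tested.

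The other isoforms stayed too low to test. Cox7a1, the heart and skeletal muscle partner of Cox7a2, had 1 to 7 counts per iso-osmolar library, 5 to 8 at 500 mOsm and 1 to 5 at 600 mOsm, and Cox6a2, the muscle partner of Cox6a1, had at most 4 in any library. Ndufa4l2, known from low oxygen, had 1 to 6, 6 to 16 and 2 to 9 counts in the 3 groups, so that neighbouring groups met or overlapped. Cox8b had a single count in 1 of the 500 mOsm libraries, and Cox7b2 and Cox8c had 0 in all 9. A count of 3 corresponded to between 0.113 and 0.137 FPKM for a gene of 1 kilobase, a limit that covers counting error only. Among the counterparts, Ndufa4 read 302, 273 and 277 FPKM in iso-osmolar cells and 341, 352 and 326 at 600 mOsm, a rise of 0.26 ± 0.06 on the log2 scale (edgeR adjusted p = 0.00675). Cox7a2 overlapped between these groups, at 70.0, 68.1 and 74.0 against 87.8, 91.9 and 72.0 FPKM, and passed narrowly (0.25 ± 0.09, edgeR adjusted p = 0.049).

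**Figure D3:**
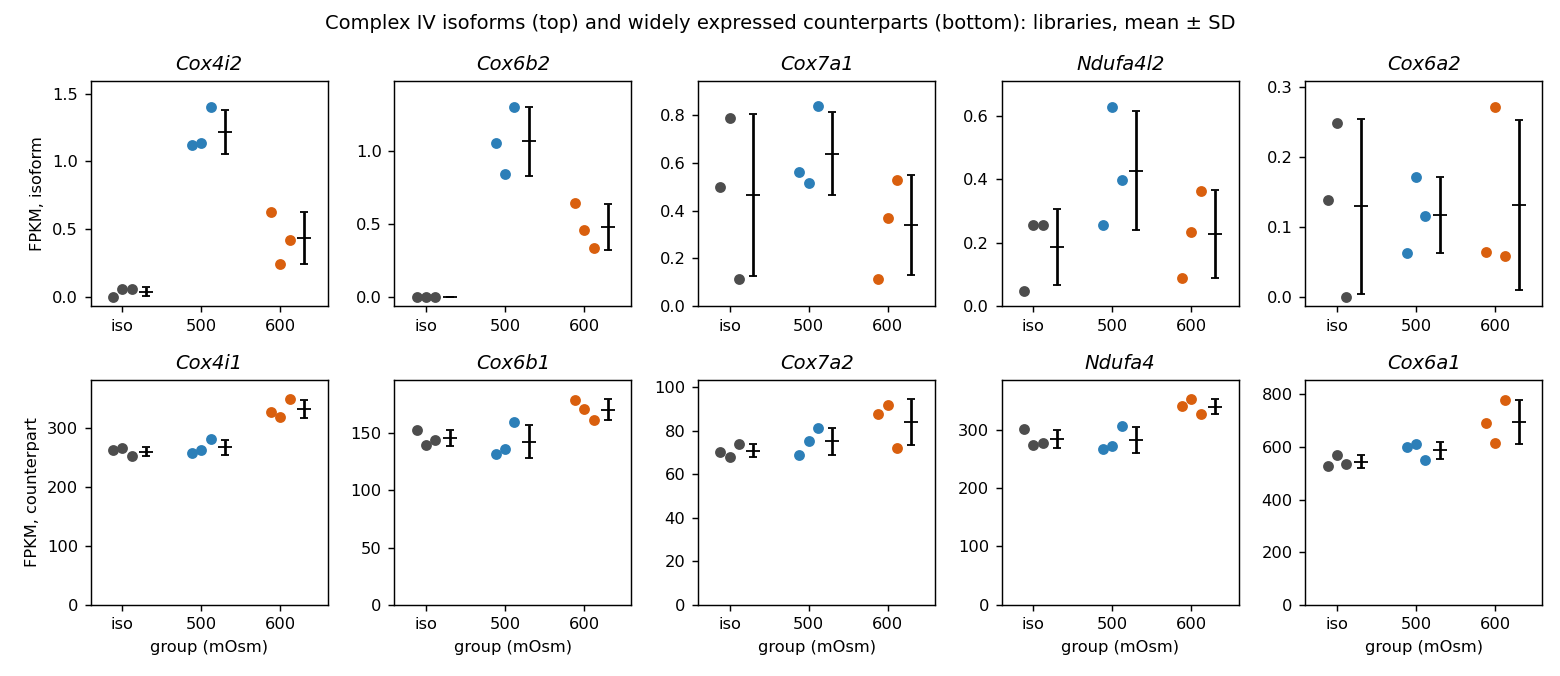
FPKM (linear axes) of 5 complex IV isoforms (top) and their widely expressed counterparts (bottom) in iso-osmolar, 500 and 600 mOsm libraries (points), with mean ± SD (n = 3) beside them. Cox4i2 and Cox6b2 peak at 500 mOsm at about 1 FPKM, while the counterparts are highest at 600 mOsm and reach 83.9 to 695 FPKM on average.

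In complex V, the ATP synthase, genes of the catalytic head, the stalks, the membrane part and the rotor ring were among those that rose. At 600 mOsm 12 of 15 structural genes exceeded iso-osmolar cells and 12 exceeded 500 mOsm (edgeR). The second count was 6 without the first or without the third 600 mOsm library, beside 7.88% and 8.3% of all genes. At 500 mOsm 0 of the 17 complex V genes were called, with 1 at an unadjusted p under 0.05 and 0 by DESeq2 and by limma. Atp5b, the catalytic beta subunit and the most abundant member, read 756, 767 and 733 FPKM in iso-osmolar cells, 741, 776 and 778 at 500 mOsm and 881, 832 and 885 at 600 mOsm. The 600 mOsm libraries stood apart, by a log2 fold change of 0.20 ± 0.04 against iso-osmolar (edgeR adjusted p = 0.00276) and 0.18 ± 0.04 against 500 mOsm (adjusted p = 0.00735). Atp5e, the small epsilon subunit of the central stalk, read 44.3, 45.4 and 45.2 FPKM in iso-osmolar cells, 45.9, 49.7 and 49.2 at 500 mOsm and 58.5, 53.0 and 57.2 at 600 mOsm. This was the largest rise of the complex against iso-osmolar cells, 0.32 ± 0.05 on the log2 scale (edgeR adjusted p = 0.000592). Atp5k, subunit e of the membrane part, read 74.1, 75.0 and 72.6 FPKM in iso-osmolar cells, 83.9, 67.8 and 68.4 at 500 mOsm and 93.8, 81.6 and 99.5 at 600 mOsm. One 500 mOsm library exceeded the lowest 600 mOsm library, and the step from 500 to 600 mOsm was 0.32 ± 0.09 on the log2 scale (edgeR adjusted p = 0.0179). Atp5a1 and Atp5o passed between the intensities and missed the threshold against iso-osmolar cells, with estimates at 500 mOsm of -0.08 for both. Atp5s and Atp5sl, which bear the name but are not structural subunits, read 1.30 and 3.45 FPKM in iso-osmolar cells and were not called.

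Subunit c, which forms the rotor ring of the ATP synthase, is made as one mature protein from 3 genes. Against iso-osmolar cells, Atp5g1 and Atp5g2 rose at 600 mOsm by 0.19 ± 0.05 and 0.18 ± 0.05 on the log2 scale (edgeR adjusted p = 0.0105 and 0.0102), while Atp5g3 read 319, 309 and 313 FPKM in iso-osmolar cells, 285, 299 and 322 at 500 mOsm and 314, 322 and 309 at 600 mOsm and gave 0.01 ± 0.05 (adjusted p = 0.94). For Atp5g2 the log2 fold change at 600 mOsm was -0.015 under the GC and length correction. The share of Atp5g3 in the summed FPKM of the 3 genes was 57.1%, 56.2% and 56.6% in iso-osmolar cells, 53.3%, 54.5% and 57.2% at 500 mOsm and 52.6%, 55.2% and 53.0% at 600 mOsm. It was lower by 3.04 percentage points on average at 600 mOsm than in iso-osmolar cells with no overlap (exact two-sided permutation test, p = 0.1, the smallest that 3 against 3 libraries allow, 0.3 after adjustment over 9 comparisons). The share of Atp5g2 was 33.5% ± 0.2 in iso-osmolar cells and 35.8% ± 1.2 at 600 mOsm (SD, n = 3, exact permutation test p = 0.1) and that of Atp5g1 was 9.9% ± 0.44 and 10.6% ± 0.18 (p = 0.1, same exact test). The shares depend on gene length, which the table gives as 4715 bases for Atp5g1, and in raw counts Atp5g1 held 38.7% in iso-osmolar cells.

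Levels within a complex were far from equal. Among the subunits of complex I they ran from 0.44 FPKM (Ndufb2) over a median of 48.6 to 375 FPKM (Ndufb9) in iso-osmolar cells. Those of complex II ran from 20.2 (Sdhc) to 117 FPKM (Sdhb), of complex III from 30.8 (Uqcrc2) to 266 FPKM (Uqcrc1) and of the widely expressed complex IV genes from 32.5 (Cox5a) to 544 FPKM (Cox6a1). The assembly factors were lower, from 2.77 (Ndufaf3) to 34.5 FPKM (Ndufaf2). These levels depend on the deposited gene lengths, so that a gene listed with a long model reads lower. In addition, 22 members share at least 100 bases at 95% identity or more with a pseudogene or another member, of which 7 had copies with over 1% of their own counts. Exons of 25 members overlap a listed gene on the opposite strand, and as no strand is stated for the counting, reads of such pairs cannot be told apart.

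**Figure D4:**
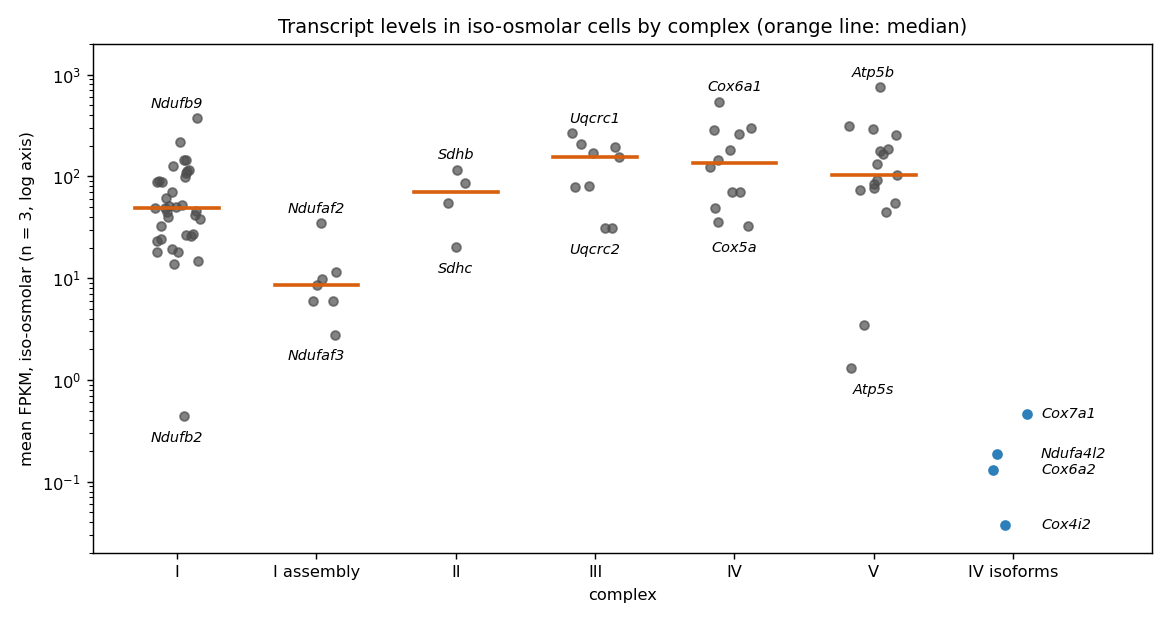
Mean FPKM in iso-osmolar cells (n = 3, log axis) of each gene by complex, with the highest and lowest gene of each complex named and medians as orange lines; isoforms listed at 0 (Cox6b2, Cox7b2, Cox8b and Cox8c) cannot be drawn on a log axis. The ratio of the highest to the lowest gene ranges from 5.79 in complex II to 859 in complex I, and the complex IV isoforms lie below 1 FPKM.

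The subunits encoded in mitochondrial DNA went the other way. Of the 13 mitochondrial protein-coding genes 12 were tested, and 11 were lower at 500 mOsm and 11 at 600 mOsm than in iso-osmolar cells, with median log2 fold changes of -0.73 and -1.03. Of all genes tested 14.8% and 20.0% were called lower. Between 500 and 600 mOsm the calls were mixed, with 5 lower and 1, mt-Nd1, higher. The complex I subunit gene mt-Nd2 read 507, 526 and 633 FPKM in iso-osmolar cells, 366, 380 and 451 at 500 mOsm and 151, 175 and 168 at 600 mOsm. Its groups did not overlap, and the log2 fold change was -0.48 ± 0.09 at 500 mOsm (edgeR adjusted p = 0.00178) and -1.75 ± 0.10 at 600 mOsm (adjusted p = 5.88e-08). In complex IV, mt-Co1 read 1490, 1591 and 1516 FPKM in iso-osmolar cells, 1101, 1161 and 1476 at 500 mOsm and 1073, 1346 and 1273 at 600 mOsm, and fell by 0.32 ± 0.10 on the log2 scale at the higher intensity (edgeR adjusted p = 0.0289). Both genes fell in the same libraries in which the nuclear subunits of their complexes rose. The libraries were made from poly(A)-selected RNA, and the part of that selection in these levels was not tested.

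**Figure D5:**
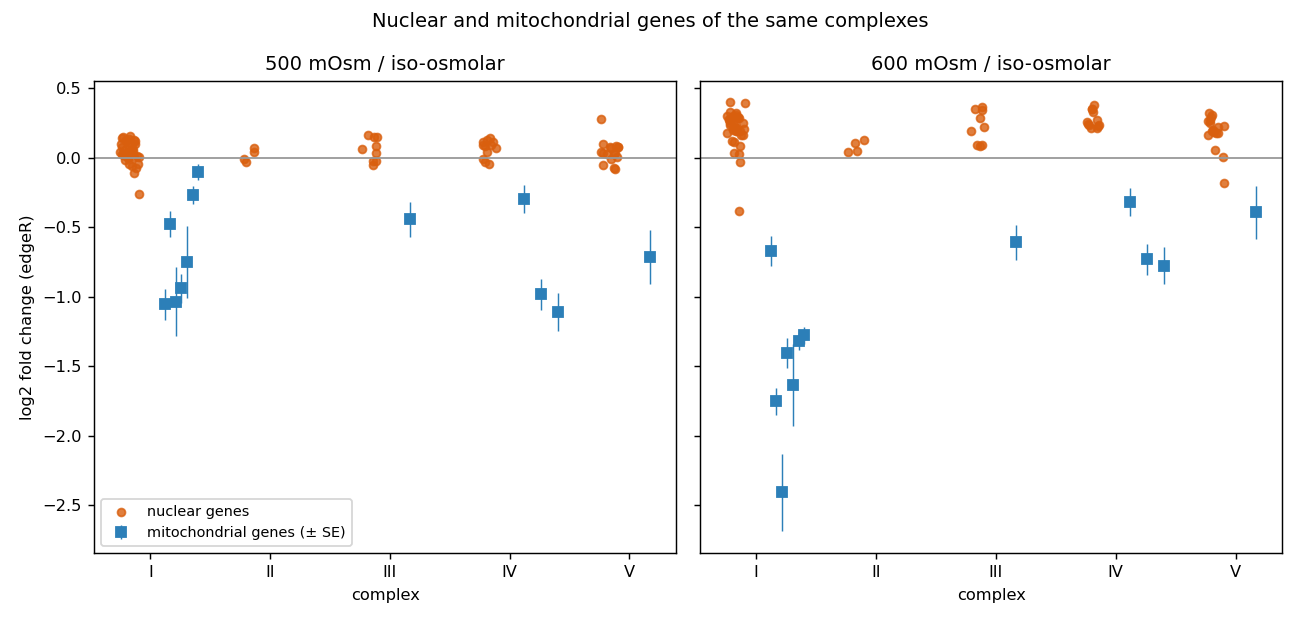
Log2 fold change (edgeR) against iso-osmolar cells of the nuclear genes (orange circles; Cox4i2 and Cox6b2 left out for scale) and of the mitochondrial genes (blue squares, ± SE) of each complex at 500 and 600 mOsm. At 600 mOsm the mitochondrial genes lie between -2.41 and -0.32, while the called nuclear genes lie between 0.18 and 0.40.

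Genes that build the complexes or feed them were called in both directions. Of 38 tested assembly and control factors outside the Ndufaf family, low-intensity stress raised 2 and lowered 7, and high-intensity stress raised 8 and lowered 4, relative to iso-osmolar cells, where 13.2% and 14.8% of all genes were called at 500 mOsm and 15.1% and 20.0% at 600 mOsm. The steepest fall was that of Cox17, a copper chaperone for complex IV, which was listed at 0.358, 0.366 and 0.443 FPKM in iso-osmolar cells and at most at 0.062 in any stressed library (log2 fold change -3.64 ± 0.41 at 600 mOsm, edgeR adjusted p = 2.61e-05). These levels are low in all groups and near 0 in stressed cells, so its level and the size of the fall are uncertain. Uqcc2, which helps to make cytochrome b, rose at 600 mOsm by 0.28 ± 0.06 on the log2 scale (edgeR adjusted p = 0.00498) and Cox14, a factor for the assembly of complex IV, by 0.26 ± 0.05 (adjusted p = 0.00259). Tmem186, a complex I assembly factor, read 10.8, 10.1 and 9.80 FPKM in iso-osmolar cells, 4.18, 4.28 and 3.65 at 500 mOsm and 8.38, 8.60 and 8.72 at 600 mOsm, a fall that was deepest at 500 mOsm (log2 fold change -1.34 ± 0.08, edgeR adjusted p = 1.04e-07). Of 12 electron carrier genes, which hold cytochrome c (Cycs) and the enzymes of ubiquinone synthesis, 3 were higher at 500 mOsm and 3 at 600 mOsm, and Cycs was not called (0.085 ± 0.05 at 600 mOsm, edgeR adjusted p = 0.196).

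Regulators of these genes were called at 600 mOsm at shares near those of all genes (15.1% higher and 20.0% lower), and at 500 mOsm 14.8% of all genes were lower. Of 11 tested, 4 fell at 500 mOsm (Nrf1, Pprc1, Tfam and Twnk), while at 600 mOsm Polrmt and Tfb1m rose and Gabpb1, Pprc1 and Yy1 fell against iso-osmolar cells (edgeR). Nrf1 read 21.6, 21.2 and 21.4 FPKM in iso-osmolar cells, 18.0, 18.1 and 17.8 at 500 mOsm and 23.2, 21.4 and 20.5 at 600 mOsm, so that it fell at 500 mOsm by 0.25 on the log2 scale (edgeR adjusted p = 0.00306) and overlapped with iso-osmolar cells at 600 mOsm. Yy1 read 26.5, 25.4 and 25.1 FPKM in iso-osmolar cells and 17.2, 16.0 and 17.7 at 600 mOsm, where it fell by 0.60 (adjusted p = 5.96e-06). Ppargc1a, the coactivator known for raising mitochondrial genes in muscle and brown fat, was at or near 0 in all groups.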

How the data were processed

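The 9 RNA-seq libraries of MEFs were sequenced paired-end, and the submitters' processing notes name CASAVA 1.8, STAR and the mm10 build. The deposited table holds the authors' read counts per gene, and the authors' FPKM values, which scale those counts by gene length and depth, are given beside them. The tool and strand setting of the counting are not given in the sources used here. The table's group means, fold changes and p-values of the authors' own comparisons were not used.

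From the counts, levels were recomputed as FPKM on TMM-scaled totals, with the deposited gene lengths. Differences were tested with edgeR 4.0.16 (TMM, filterByExpr, quasi-likelihood, R 4.3.3) in a single fit of all 9 libraries, adjusted over 13082 genes. Scripts were tested on simulated data. DESeq2 1.42.0 and limma 3.58.1, other scalings and filters, a GC and length correction by splines, a replicate block and leaving out each library served as alternatives. Shared sequence was searched with blastn 2.17.0 (at least 100 bases at 95% identity). Subunit c shares were compared by exact permutation tests.

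Members and lists were chosen with earlier results of these data known. Named with values were complex II and Cyc1, the largest called rise and fall of each complex and comparison, all isoforms with their counterparts, subunit c, calls against the common direction, and the members of highest and lowest level. Ndufs1, Ndufs3, Ndufv2, Ndufb2, Atp5a1, Atp5o, Atp5s, Atp5sl and the pathway genes outside the members were named after their values were seen. Same-numbered libraries of different groups had correlations of their deviations from the group means between -0.241 and 0.156, so the numbers were not taken to pair them. Results for 1 member are not reported here by name, and it is not drawn in the plot of levels by library.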

Additional observations from a re-analysis of the deposited data

How the results depend on the processing

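Counts of calls at 600 mOsm against iso-osmolar cells depended most on the GC and length correction, which gave 34 higher, 1 lower (Cyc1) and a median log2 fold change of 0.141, and with the replicate block 25, 1 and 0.142. Of all genes, 16.4% were higher and 21.2% lower under the correction, and 14.1% and 19.1% with the block. Against 500 mOsm the same corrections gave medians of 0.109 and 0.11, with 25 higher and 1 lower under the block. The replicate block alone gave 49 higher and 0 lower, 27 higher and 1 lower, and 2 higher and 1 lower at 600 against iso-osmolar, 600 against 500 and 500 against iso-osmolar. In the same order, 11.7% and 17.4%, 8.81% and 14.8%, and 10.9% and 12.8% of all genes were higher and lower. At 500 mOsm against iso-osmolar cells, 4 were higher on library size alone, 9 higher and 6 lower under the correction, 6 higher and 4 lower with the block added, and 6 higher by limma with a pseudocount of 1 or 0.1. Calls lower at 600 than at 500 mOsm numbered 1 without a filter, 0 with at least 10 counts in every library (both genes were then untested) and 0 by DESeq2, beside 11.1%, 16.2% and 13.2% of all genes. Leaving out 1 library gave 46 to 59 higher at 600 mOsm against iso-osmolar, 20 to 44 higher and 1 to 2 lower against 500 mOsm, and 2 to 4 higher and 0 to 1 lower at 500 mOsm.

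Among named values called in the main fit or in the alternative, directions turned only under the GC and length correction. Estimates near 0 without a call can change sign in other settings and are not listed here. The values that turned, without and with the block, were Atp5g2 (-0.015, -0.014) and Cox8a (-0.003, -0.002) at 600 mOsm, and Cyc1 at 500 (-0.107, -0.107) and 600 mOsm (-0.119, -0.119), all against iso-osmolar cells. The cause was not tested. Of 1612 alternative values of named genes, 85 lost their call outside that correction and 25 under it. In iso-osmolar, 500 and 600 mOsm cells, counts without length gave subunit c shares of 38.7%, 39.5% and 40.7% for Atp5g1, 20.9%, 21.5% and 21.9% for Atp5g2 and 40.5%, 39.0% and 37.5% for Atp5g3. Coding transcript lengths, chosen after seeing the data, gave 14.3%, 14.7% and 15.3%, 30.2%, 31.4% and 32.2%, and 55.6%, 53.9% and 52.5%. The alternatives for mitochondrial genes, also chosen after seeing the data, called 8 to 11 lower at 500 mOsm and 10 to 12 at 600 mOsm against iso-osmolar cells. With 3 libraries a group, shares could not reach a p under 0.1.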
